A study of Mus musculus with 8 samples.

Results

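S100 proteins, annexins and galectins are 3 families of mainly intracellular proteins, some of which T cells also release. The genes described are the 10 of these families listed by name, S100a4, S100a6, S100a10, S100a11, S100a13, Anxa2, Anxa5, Anxa6, Lgals1 and Lgals3, out of 45232 genes in the deposited table, and each was found there once. They were read in 8 bulk RNA sequencing libraries of OT-I CD8+ T cells, mouse cells whose receptor recognises the ovalbumin peptide SIINFEKL. In both groups the cells had been activated with that peptide and kept for 5 days in RPMI with IL-2 and 10% serum. One group of 4 libraries had 470 µM o-phosphoethanolamine (pEtn) added and is called pEtn here, and the other group of 4 had none added and is called RPMI. The labels give no age or sex of the mice and do not say whether the numbered libraries of a medium came from separate animals or cultures, so p-values measure the spread between these libraries, which may be technical.

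S100 proteins bind calcium through a pair of EF-hand motifs and then dock onto partner proteins, annexins bind phospholipids with negatively charged headgroups when calcium is raised, and galectins bind beta-galactoside sugars on glycoproteins. S100a10 is unusual in that it does not need calcium, and it joins Anxa2 in a complex at the inner face of the plasma membrane. In CD8 T cells, Lgals1 and several S100 genes are widely used as marks of activated and effector cells, and the pEtn added here is a precursor of phosphatidylethanolamine, a lipid of the same membranes.

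Libraries held 29223765 to 35504571 counts with pEtn and 31280997 to 34474420 in RPMI, and each of the 10 genes had at least 1710 counts in every library. Cd8a stood at 261 to 421 CPM (counts scaled to a common library total after TMM, a correction for library composition) in pEtn libraries and at 264 to 362 CPM in RPMI libraries. Of 6 macrophage and monocyte markers Adgre1 was at 0 in all libraries, and Lyz2 and Csf1r reached at most 3 and 2 counts. The summed level of that list was 4.46 to 12.99 CPM with pEtn and 2.48 to 8.92 CPM in RPMI. Of 5 neutrophil markers S100a8, S100a9 and Elane were at 0 throughout, and the list summed to 1.38 to 25.9 CPM with pEtn and 0.780 to 8.59 CPM in RPMI, and Ly6g was the only one of them abundant enough to be tested. B cell, stromal and erythroid lists each summed to at most 3.39 CPM in any library. Of 5 dendritic cell markers Siglech was at 0, and the list summed to 7.79 to 29.5 CPM with pEtn and 14.3 to 36.7 CPM in RPMI. The 3 NK cell markers, which include Eomes, a gene CD8 T cells also use, summed to 209 to 486 CPM with pEtn and 350 to 616 CPM in RPMI. Of 5 markers of CD4 and regulatory T cells, Cd4 and Foxp3 averaged at most 0.317 CPM in either medium. Zbtb7b was called higher with pEtn (log2 fold change 0.68, SE 0.17, edgeR adjusted p = 0.0262). Gata3 averaged 20.9 CPM with pEtn and 16.5 CPM in RPMI, and Ikzf2 averaged 3.47 and 2.60 CPM. Neither was called (edgeR adjusted p = 0.569 and 0.598). The list summed to 52.4 to 68.3 CPM with pEtn and 26.5 to 54.8 CPM in RPMI. The part of these markers in the results on the 10 genes was not tested. Replicates 3 and 4 of each medium resembled each other much more than other libraries of a medium did (chi-square per gene 5.04 with pEtn and 11.2 in RPMI, against 51.1 to 107 for the other pairs). The labels number them as libraries of their own, and they are counted so here. In bulk RNA, fewer cells expressing a gene and less RNA per cell cannot be told apart.

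Lgals1 was by far the most abundant of the 10 genes per transcript length, and Anxa5 the least. By deposited TPM (a share of all transcripts corrected for their length), Lgals1, the dimeric galectin, averaged 5514 ± 276 TPM with pEtn and 4629 ± 455 TPM in RPMI (SD, n = 4 each), which ranked it 15 among all genes by mean TPM. S100a4, a regulator of non-muscle myosin, followed at 1855 ± 443 TPM with pEtn and 1472 ± 285 TPM in RPMI. S100a10 came next, at 1373 ± 170 TPM with pEtn and 1113 ± 177 TPM in RPMI. S100a11 averaged 1333 ± 247 TPM with pEtn and 1007 ± 226 TPM in RPMI, and S100a6 averaged 913 ± 154 TPM with pEtn and 862 ± 120.0 TPM in RPMI (SD, n = 4 each). Ranges of neighbours in this order overlapped, except that Lgals1 stood apart at the top in both media, S100a11 stood above S100a6 in pEtn libraries, and S100a13 and Anxa5 stood apart at the bottom. Lgals3 was the gene whose place differed most, sixth in RPMI at 759 ± 85.3 TPM but eighth with pEtn at 589 ± 233 TPM (SD, n = 4).

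**Figure D1:**
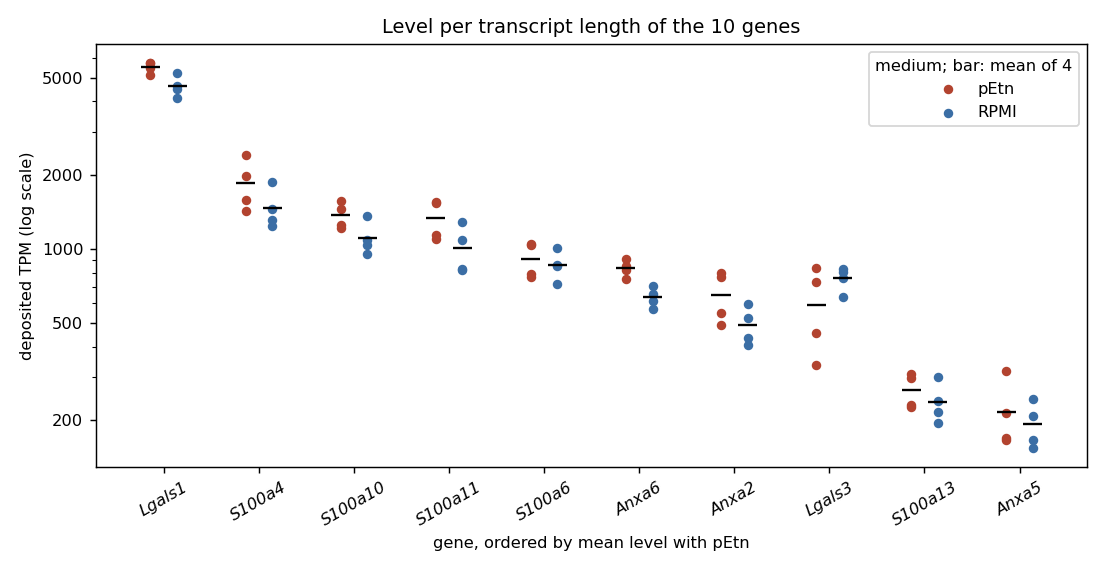
Deposited TPM (log axis) of the 10 genes, ordered by their mean with pEtn; each point is 1 library, pEtn in red and RPMI in blue, and bars are means of 4 libraries. Lgals1 lies above all others in both media, and the pEtn libraries of Lgals3 spread from 337 to 834 TPM.

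The 10 genes made up most of the RNA of their families. They held 96.2% ± 0.15 of the summed TPM of all 38 S100, annexin and galectin genes with pEtn and 96.2% ± 0.23 in RPMI (SD, n = 4). Of all counts they took 0.599% ± 0.075 with pEtn and 0.504% ± 0.051 in RPMI (SD, n = 4), with pEtn libraries at 0.655%, 0.673%, 0.537% and 0.531% and RPMI libraries at 0.580%, 0.473%, 0.472% and 0.493% in replicate numbers 1 to 4. The ranges overlapped, and the share was higher with pEtn within each number.

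Promoter windows are shown for the 4 genes with a window whose level was higher with pEtn in every replicate number, S100a4, S100a11, S100a13 and Anxa2, and for Lgals3, the gene with a fold change below 0. RefSeq windows of 300 bases, from 250 before to 50 after the start, matched 7 of the 10 genes by symbol. S100a10, Anxa6 and Lgals1 were not among them. The windows below are from GRCm38.p6, an older build than the GRCm39 of the submitters' processing notes, and lie on the plus strand at chr3:90603520-90603819 for S100a4, chr3:90514185-90514484 for S100a13, chr3:93520246-93520545 for S100a11, chr9:69453433-69453732 for Anxa2 and chr14:47373610-47373909 for Lgals3. Capitals mark matches, on either strand, to TATAAA (the TATA box), GGGCGG (the GC box), TGANTCA (the site of AP-1 factors) and TGACGTCA (the cyclic AMP response element), none of which overlapped another here.
S100a4: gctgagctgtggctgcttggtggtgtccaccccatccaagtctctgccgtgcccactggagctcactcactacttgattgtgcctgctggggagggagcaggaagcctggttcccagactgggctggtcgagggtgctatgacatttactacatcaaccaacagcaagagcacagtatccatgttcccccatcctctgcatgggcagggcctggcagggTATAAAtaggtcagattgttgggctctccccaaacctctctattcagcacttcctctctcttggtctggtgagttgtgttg
S100a13: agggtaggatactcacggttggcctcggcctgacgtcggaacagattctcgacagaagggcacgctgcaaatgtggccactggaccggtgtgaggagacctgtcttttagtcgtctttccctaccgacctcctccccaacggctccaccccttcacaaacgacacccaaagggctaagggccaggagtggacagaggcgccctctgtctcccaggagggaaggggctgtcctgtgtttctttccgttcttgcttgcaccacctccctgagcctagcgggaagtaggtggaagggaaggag
S100a11: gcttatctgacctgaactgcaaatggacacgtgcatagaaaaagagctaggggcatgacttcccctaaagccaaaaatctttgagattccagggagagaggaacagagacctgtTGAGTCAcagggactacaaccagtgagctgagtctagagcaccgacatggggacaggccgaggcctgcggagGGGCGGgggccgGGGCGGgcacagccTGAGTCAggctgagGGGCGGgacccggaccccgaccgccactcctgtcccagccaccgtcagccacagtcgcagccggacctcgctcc
Anxa2: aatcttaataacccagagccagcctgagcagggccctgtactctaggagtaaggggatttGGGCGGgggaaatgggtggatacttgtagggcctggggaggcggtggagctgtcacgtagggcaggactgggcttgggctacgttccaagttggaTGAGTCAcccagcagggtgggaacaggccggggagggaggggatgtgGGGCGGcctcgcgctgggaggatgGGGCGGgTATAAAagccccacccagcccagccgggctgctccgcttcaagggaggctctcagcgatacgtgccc
Lgals3: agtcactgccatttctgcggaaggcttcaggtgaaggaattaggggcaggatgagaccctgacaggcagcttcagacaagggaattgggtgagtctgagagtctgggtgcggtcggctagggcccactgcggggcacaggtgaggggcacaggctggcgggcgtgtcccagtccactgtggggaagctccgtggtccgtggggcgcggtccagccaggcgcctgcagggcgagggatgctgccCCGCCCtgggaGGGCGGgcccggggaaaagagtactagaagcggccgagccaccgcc
The AP-1 letters stood in the windows of S100a11, with first bases 136 and 38 bases before the start, and of Anxa2, 95 bases before it. They were in 2 of the 7 windows, while 7.81% of 32851 RefSeq windows of the same length hold them. The windows of S100a4, S100a13 and Lgals3 did not hold these letters. GC boxes were in the windows of S100a11, Anxa2 and Lgals3 (35.7% of all windows) and a TATA box in those of Anxa2 and S100a4 (13.6%). The cyclic AMP response element was in 0 of the 7 and in 1.79% of all windows. These matches describe letters and not binding.

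Among the 10 genes, 1 passed the test between the media. Anxa6, an annexin with a duplicated core that binds membranes of the plasma membrane and late endosomes, rose with pEtn, and the other 9 did not pass. The test was edgeR's quasi-likelihood F test over all genes tested with Benjamini-Hochberg adjustment, which called 12.8% of 11862 genes at an adjusted p under 0.05 (5.22% higher and 7.56% lower), so 1 of 10 is a share near that of all genes. No member passed as lower. At an unadjusted p under 0.05 in edgeR, 5 were higher and 0 lower, against 1615 and 1760 of the 11862 genes. DESeq2 called 1 higher and 0 lower, against 960 and 1295 of 12819 genes. The log2 fold changes of the 10 genes had a median of 0.27, against 0.02 over all genes tested, and 9 of 10 were above 0, against 52.2% of all genes. Without pEtn replicate 2 the median was 0.18 and 7 of 10 were above 0, and in replicates 1 and 2 only 10 were. The 10 genes were chosen with earlier results of these data known, so these values are a description and no test. The level was higher with pEtn in all 4 replicate numbers for 6 of the 10 genes, against 25.1% of all genes tested, and lower in all 4 for 0, against 23.9%. The libraries of the media did not overlap for 1 of the 10, against 20.4% of all genes tested.

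Replicate numbers are shared by the media, and libraries of the same number deviated together, so a fit with the number as a block was also made. In it 4 of the 10 genes were called, all higher with pEtn (S100a10, S100a11, Anxa2 and Anxa6), where 32.3% of all genes tested were called (15.8% higher and 16.5% lower). In 5 of the 10 genes, S100a10, S100a11, S100a13, Anxa2 and Anxa5, libraries 1 and 2 stood above libraries 3 and 4 in both media, which was so for 17% of all genes tested. In the same blocked fit several markers of other cell types were called, where 15.8% of all genes tested were called higher and 16.5% lower. Ly6g (neutrophils, adjusted p = 0.0197), Cd68 (macrophages, 0.0115) and Itgax (dendritic cells, 0.0111) were higher with pEtn, and so were Zbtb7b (0.00186), Cd8b1 (0.00447) and the RNA quality gene Neat1 (0.0427). Xcr1 (dendritic cells, adjusted p = 0.000821) and Eomes (NK and CD8 T cells, 0.00167) were lower with pEtn in edgeR with the block. Of the neutrophil, macrophage and dendritic cell lists, S100a8, S100a9, Elane, Adgre1 and Siglech were at 0 in all libraries. Mpo, Lyz2, Csf1r, Cd14, Flt3 and Zbtb46 reached at most 2, 3, 2, 29, 2 and 6 counts. Itgam was not called (adjusted p = 0.0569 in edgeR with the block). The part of the called markers in the 4 calls was not tested.

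Anxa6 (ENSMUSG00000018340) had 1002, 857, 926 and 946 CPM in pEtn libraries 1 to 4, against 772, 641, 739.5 and 700.0 CPM in RPMI libraries 1 to 4. All pEtn libraries lay above all RPMI libraries, which happened in this direction for 9.74% of genes tested. Its log2 fold change was 0.39 (SE 0.09, edgeR adjusted p = 0.0197), or 1.31-fold, and the difference was 0.38, 0.42, 0.32 and 0.43 log2 CPM in numbers 1 to 4, the most even of the 10 genes. The call was lost without RPMI replicate 3 or 4 or pEtn replicate 3 or 4 (adjusted p from 0.0508 to 0.0615), with replicates 3 and 4 summed (0.131) and in replicates 1 and 2 only (0.344), with log2 fold changes of 0.38 to 0.40 in those fits. In RefSeq's annotation Anxa6 overlaps the noncoding gene Gm19911 and Lgals1 overlaps Gm30368, so reads of these pairs could have been shared.

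Anxa2 (ENSMUSG00000032231), the annexin that links membranes to actin and carries S100a10, had 1117, 1107, 703 and 771 CPM in pEtn libraries 1 to 4, against 831, 750.3, 587 and 634 CPM in RPMI libraries 1 to 4. The pEtn library exceeded the RPMI library of its own number each time, while the groups overlapped. The log2 fold change was 0.40 (SE 0.18, edgeR adjusted p = 0.167), and the adjusted p was 0.00755 with the replicate block. Its partner S100a10 (ENSMUSG00000041959) had 714, 680.3, 568 and 573 CPM in pEtn libraries, against 619, 506, 448 and 493 CPM in RPMI libraries. Only RPMI library 1 reached into the range of the pEtn libraries, with a log2 fold change of 0.30 (SE 0.12, edgeR adjusted p = 0.145, and 0.0154 with the replicate block). The blocked call of S100a10 was lost when replicates 3 and 4 were summed (adjusted p = 0.0603 with the block). The ratio of S100a10 to Anxa2 on the TPM scale was 2.16 ± 0.28 with pEtn and 2.28 ± 0.14 in RPMI (SD, n = 4), and the groups overlapped.

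S100a11 (ENSMUSG00000027907), a partner of Anxa1 and Anxa2 at membranes, had 294, 307, 225 and 212 CPM in pEtn libraries 1 to 4, against 208, 253, 163 and 164 CPM in RPMI libraries 1 to 4. It was higher with pEtn in each number, by 0.50, 0.28, 0.46 and 0.37 log2 CPM, though RPMI library 2 lay above pEtn libraries 3 and 4. The log2 fold change was 0.40 (SE 0.17, edgeR adjusted p = 0.167, and 0.00373 with the replicate block). With replicates 3 and 4 of each medium summed to 1 library, edgeR called 0 of the 10 genes, against 2.71% of all genes tested. In that fit 2 of the 10 were higher and 0 lower at an unadjusted p under 0.05, against 983 and 1236 of 11992 genes. With the block added to that fit edgeR called 3, S100a11 (adjusted p = 0.0220), Anxa2 (0.0229) and Anxa6 (0.0221), all higher. Of all genes tested, 19.4% were called there. Anxa5 (ENSMUSG00000027712), known as the probe for exposed phosphatidylserine, had 143, 217, 114 and 113 CPM in pEtn libraries, against 139, 167, 106 and 116 CPM in RPMI libraries. Its groups overlapped throughout (log2 fold change 0.15, SE 0.22, edgeR adjusted p = 0.706), and without pEtn replicate 2 the log2 fold change was -0.11.

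S100a4 (ENSMUSG00000001020) and S100a6 (ENSMUSG00000001025), which binds the ubiquitin ligase partner Cacybp, lie close together in the S100 cluster on chromosome 3, with S100a5 between them in RefSeq's gene order. S100a4 had 436, 545, 322 and 350.2 CPM in pEtn libraries 1 to 4, against 410.2, 295, 279 and 332 CPM in RPMI libraries 1 to 4. Library 2 gave the widest gap, 0.88 log2 CPM, against 0.08 to 0.21 in the other numbers, and the log2 fold change was 0.33 (SE 0.18, edgeR adjusted p = 0.268). S100a6 had 534, 553, 406 and 408 CPM in pEtn libraries, against 519, 378, 448 and 461 CPM in RPMI libraries. It was higher with pEtn in numbers 1 and 2 and lower in 3 and 4, and the log2 fold change over all libraries was 0.08 (SE 0.14, edgeR adjusted p = 0.767). S100a13 (ENSMUSG00000042312), which takes part in the release of proteins that lack a signal peptide, had 82.6, 82.2, 63.9 and 61.3 CPM in pEtn libraries, against 80.5, 66.0, 53.7 and 60.2 CPM in RPMI libraries. Its groups overlapped (log2 fold change 0.16, SE 0.15, edgeR adjusted p = 0.552), and since S100a13 overlaps S100a1 in RefSeq's annotation and the use of strand is not given in the sources used here, their reads may be shared.

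**Figure D2:**
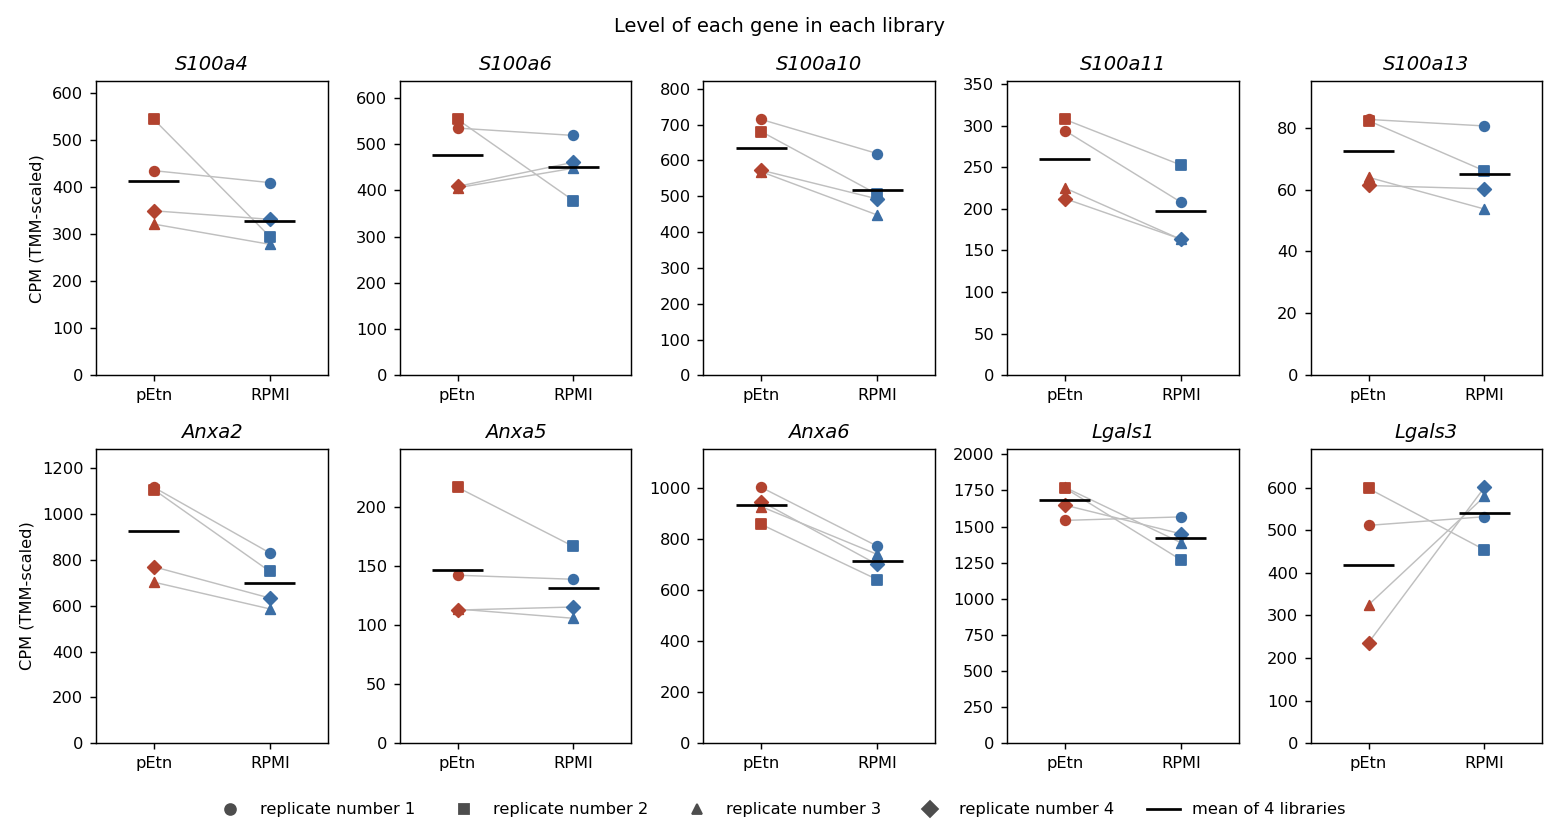
CPM after TMM scaling (axes from 0) of the 10 genes in each library, pEtn on the left and RPMI on the right of each panel; symbols give the replicate number, grey lines join libraries of 1 number and black bars are means of 4. Anxa6 is the gene whose groups do not overlap, with pEtn libraries at 857 to 1002 CPM and RPMI libraries at 641 to 772 CPM.

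The fold changes of the pair of galectins had opposite signs, and neither passed the test. Lgals1 (ENSMUSG00000068220), whose protein crosslinks glycoproteins such as CD45 and CD43 on T cells, had 1543, 1767, 1772 and 1649 CPM in pEtn libraries 1 to 4, against 1567, 1270.2, 1389 and 1450.1 CPM in RPMI libraries 1 to 4. Only number 1 lacked a higher level with pEtn, at -0.02 log2 CPM, and the log2 fold change was 0.25 (SE 0.09, edgeR adjusted p = 0.103, and 0.0749 with the replicate block). Lgals3 (ENSMUSG00000050335), the galectin with a collagen-like tail that is recruited to damaged vesicles and restrains T cell receptor clustering, had 511, 598, 325 and 236 CPM in pEtn libraries, against 532, 454, 579 and 600.5 CPM in RPMI libraries. pEtn libraries 3 and 4 lay below every other library of either medium, while pEtn libraries 1 and 2 lay within the span of the RPMI libraries.

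Over all 8 libraries the log2 fold change of Lgals3 was -0.37 (SE 0.25, edgeR adjusted p = 0.376), the only value below 0 among the 10 genes. By replicate number its difference was -0.06, 0.40, -0.83 and -1.35 log2 CPM. In replicates 1 and 2 alone the log2 fold change was 0.15 (edgeR adjusted p = 0.705), and in replicates 3 and 4 alone it was -1.08 (edgeR adjusted p = 0.00813). In that fit of replicates 3 and 4, 7 of the 10 genes were called, 5 higher (S100a10, S100a11, Anxa2, Anxa6 and Lgals1) and 2 lower (Lgals3 and S100a6), where 48.1% of all genes tested were called. In replicates 1 and 2, 0 of the 10 were called in edgeR, where 0.264% of all genes tested were. At an unadjusted p under 0.05, 2 of the 10 were higher and 0 lower there, against 747 and 1123 of 12122 genes. If replicates 3 and 4 of a medium are repeats of 1 culture, the p-values of their fit are too small. The difference between the pairs of numbers was not tested.

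Malat1 and Neat1, nuclear RNAs used as a sign of RNA quality, stood higher with pEtn in numbers 3 and 4. Malat1 stood at 18.5 and 17.2 CPM in pEtn libraries 3 and 4 and at 7.03 and 6.73 CPM in RPMI libraries 3 and 4, and Neat1 at 9.57 and 8.97 CPM in those pEtn libraries and 4.55 and 3.84 CPM in those RPMI libraries. In numbers 1 and 2, Malat1 stood at 18.1 and 22.2 CPM with pEtn and at 19.7 and 25.6 CPM in RPMI, and Neat1 at 30.3 and 35.9 CPM with pEtn and at 30.5 and 25.5 CPM in RPMI. The part of RNA quality in the values of Lgals3 was not tested.

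**Figure D3:**
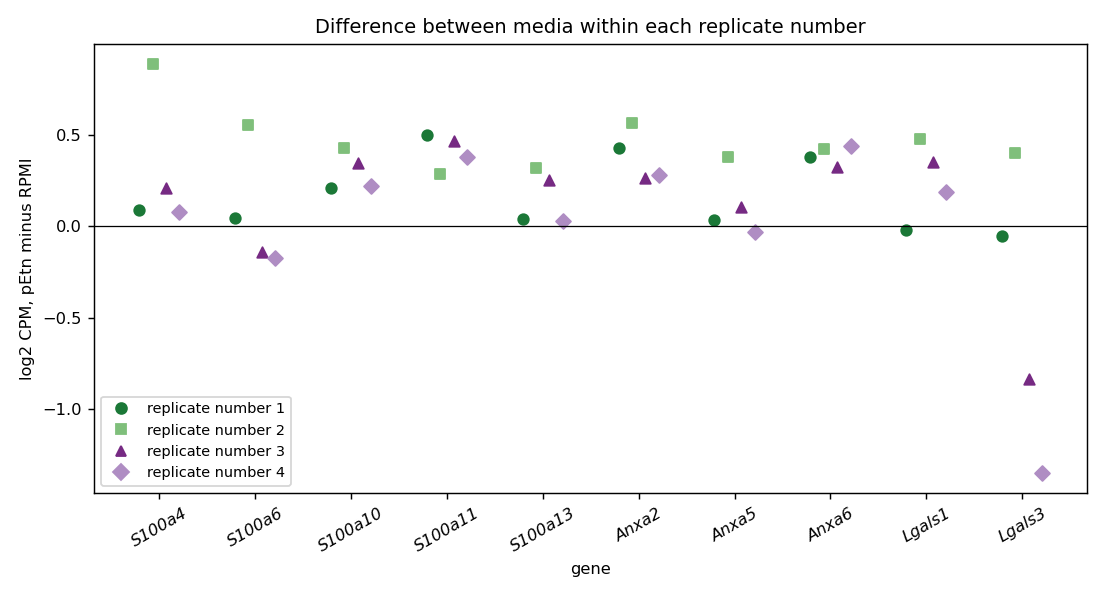
Difference in log2 CPM (pEtn minus RPMI) within each replicate number for the 10 genes; each point is 1 number and 0 is no difference. The 4 points of Anxa6 lie between 0.32 and 0.43, and those of Lgals3 between -1.35 and 0.40.

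Profiles over the 8 libraries showed which of the 10 genes varied alike. The measure was the root mean square difference between log2 CPM profiles, each centred on its own mean. S100a10 and S100a13 were nearest to each other at 0.09 log2 units, followed by S100a10 and Anxa2 at 0.13, Anxa6 and Lgals1 at 0.14 and S100a11 and Anxa2 at 0.14. The 5 most distant pairs all held Lgals3, up to 0.59 from Anxa6. The profiles were also set against 8853 other genes averaging 5 CPM or more. Symbols of the Gm, Rik, -ps and LOC kinds and of T cell receptor and immunoglobulin genes were left out. Among the 8853, those nearest to S100a4 were Tstd3, Ccdc51 and Oraov1 (0.11 to 0.12 log2 units). Those nearest to Anxa6 were Dnm2, Abhd2 and Pcgf1 (0.05), and those nearest to Lgals1 were Dnttip1, Tchp and Micu2 (0.06). The median distance over those genes was 0.38, 0.30 and 0.26 log2 units.

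The other 28 genes of the families were mostly silent or low. Of these, 16 did not enter the test, with at most 6 counts in any library and 7 of them at 0 in all libraries, among them S100a8, S100a9 and S100b. Of the 12 tested, 2 rose and 1 fell, against 5.22% and 7.56% of all genes tested. The median log2 fold change of the 12 was 0.29, against 0.02 over all genes tested. Lgals8, a galectin with a pair of sugar-binding domains that marks damaged endosomes, had 46.5, 47.9, 44.8 and 49.96 CPM in pEtn libraries, against 30.6, 37.7, 32.6 and 32.4 CPM in RPMI libraries. The groups did not overlap, and the log2 fold change was 0.50 (SE 0.10, edgeR adjusted p = 0.00976). Lgalsl, a galectin-related gene, had 19.2, 16.1, 19.1 and 16.6 CPM in pEtn libraries, against 25.4, 33.6, 27.2 and 25.3 CPM in RPMI libraries, and fell by 0.65 on the log2 scale (SE 0.13, edgeR adjusted p = 0.0106). Anxa11, an annexin that tethers RNA granules to lysosomes, had 154, 129, 146 and 142 CPM in pEtn libraries, against 117, 88.5, 113 and 109.7 CPM in RPMI libraries, and rose by 0.42 on the log2 scale (SE 0.11, edgeR adjusted p = 0.0349). Its call was lost in 5 of 8 fits that left out a library (highest adjusted p 0.0900, without pEtn replicate 3). With replicates 3 and 4 summed, the adjusted p of Lgals8, Lgalsl and Anxa11 were 0.0870, 0.0675 and 0.164.

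Of the remaining 9, Anxa1, the annexin known for its anti-inflammatory action, had 138, 186, 81.3 and 89.1 CPM in pEtn libraries, against 88.8, 128, 71.2 and 88.6 CPM in RPMI libraries. It did not pass the test (log2 fold change 0.39, SE 0.27, edgeR adjusted p = 0.385), and passed with the replicate block (adjusted p = 0.0411). Lgals9, a ligand of the receptor Tim-3, averaged 92.2 ± 16.0 CPM with pEtn and 74.3 ± 18.9 CPM in RPMI (SD, n = 4; edgeR adjusted p = 0.307, and 0.0151 with the block). Anxa3 averaged 0.857 ± 0.789 CPM with pEtn and 2.98 ± 2.66 CPM in RPMI (SD, n = 4), with a log2 fold change of -1.79 (SE 0.71, edgeR adjusted p = 0.130, and 0.00130 with the block). S100a1, which shares a locus with S100a13, stood at a log2 fold change of -0.41 (SE 0.23, edgeR adjusted p = 0.277, and 0.0377 with the block). Anxa4, Anxa7, Anxa9, Lgals4 and S100a5 had log2 fold changes from -0.04 to 0.40 and passed neither fit.

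**Figure D4:**
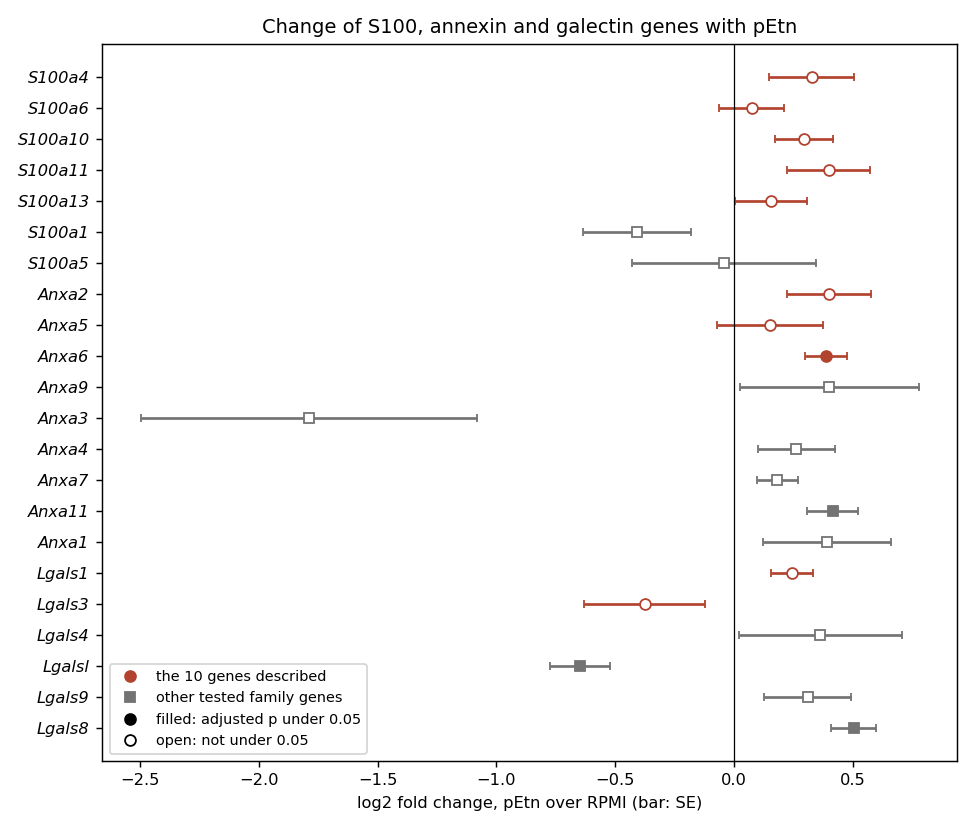
Log2 fold change (pEtn over RPMI, bars are SE) of the 10 genes in red and of the 12 other tested family genes in grey; filled symbols had an edgeR adjusted p under 0.05. Anxa6, Anxa11 and Lgals8 lie above 0 and Lgalsl below 0 among the filled symbols, and Anxa3 has the widest error.

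Genes whose products work with these families were read from lists. Of 21 partners of annexins and S100 proteins and membrane repair genes, 16 were tested. In edgeR 3 of them rose and 0 fell, against 5.22% and 7.56% of all genes tested. At an unadjusted p under 0.05, 6 were higher and 0 lower, against 1615 and 1760 of 11862 genes. DESeq2 called 4 higher and 0 lower, against 960 and 1295 of 12819 genes. The calpain genes Capn1 and Capn2, calcium-activated proteases that take part in membrane repair, rose by 0.51 and 0.53 on the log2 scale (SE 0.09 and 0.12, edgeR adjusted p = 0.00839 and 0.0225), and the plasminogen receptor gene Plgrkt rose by 0.46 (SE 0.10, edgeR adjusted p = 0.0179). Capn2 averaged 494 ± 90.7 CPM with pEtn and 342 ± 16.0 CPM in RPMI (SD, n = 4). The calls of Capn2 and Plgrkt were each lost in 3 of 8 fits that left out a library (highest adjusted p 0.0662 and 0.0626, both without RPMI replicate 3). Ahnak, the giant scaffold that binds the S100a10 and Anxa2 complex, averaged 642 CPM with pEtn and 400.3 CPM in RPMI (edgeR adjusted p = 0.277, and 0.00193 with the replicate block). With the block 7 of the 16 were called higher, where 15.8% of all genes tested were, and 1 lower, where 16.5% were. The lower one was Cacybp, which averaged 135 CPM with pEtn and 173 CPM in RPMI (blocked adjusted p = 0.00855).

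Of 9 genes that set phosphatidylserine exposure, the lipid state that Anxa5 binds, 1 rose and 0 fell in edgeR. Of all genes tested, 5.22% rose and 7.56% fell. At an unadjusted p under 0.05, 1 of the 9 was higher and 1 lower, against 1615 and 1760 of 11862 genes. DESeq2 called 1 higher and 1 lower, against 960 and 1295 of 12819 genes. Atp8a1, a flippase that moves phosphatidylserine inward, averaged 18.9 ± 3.86 CPM with pEtn and 11.4 ± 0.880 CPM in RPMI (SD, n = 4), with a log2 fold change of 0.73 (SE 0.16, edgeR adjusted p = 0.0185), and lost its call in 3 of 8 fits that left out a library (highest adjusted p 0.0612, without pEtn replicate 4). The scramblase genes Xkr8 and Ano6 stood at log2 fold changes of -0.01 and 0.25 (edgeR adjusted p = 0.987 and 0.376), and Ano6 was called higher with the block (adjusted p = 0.0243). The block called 2 of the 9 higher and 1 lower, against 15.8% and 16.5% of all genes tested.

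Among 22 galectin ligands and glycan enzymes 0 rose and 1 fell in edgeR, against 5.22% and 7.56% of all genes tested. At an unadjusted p under 0.05, 3 of the 22 were higher and 3 lower, against 1615 and 1760 of 11862 genes. DESeq2 called 1 higher and 1 lower, against 960 and 1295 of 12819 genes. Lamp1, a heavily glycosylated lysosomal membrane protein bound by galectins, averaged 198 ± 19.4 CPM with pEtn and 283 ± 9.09 CPM in RPMI (SD, n = 4), and fell by 0.52 on the log2 scale (SE 0.09, edgeR adjusted p = 0.00685). Ptprc, encoding CD45, stood at a log2 fold change of 0.05 (edgeR adjusted p = 0.714), and Mgat5, whose product builds the branched glycans that galectins favour, at -0.51 (edgeR adjusted p = 0.101). With the block Mgat5 was called lower (adjusted p = 0.00394). The block called 5 of the 22 higher and 3 lower, against 15.8% and 16.5% of all genes tested. Of the 5 higher, Lag3 had a log2 fold change of 1.03 (edgeR adjusted p = 0.105, and 0.000153 with the block). The others were Spn, encoding CD43, Cd8b1, Mgat4b and B4galt1 (adjusted p = 0.0319, 0.00447, 0.0360 and 0.0468 with the block). The 3 lower were Lamp1, Mgat5 and Mgat4a. Of 7 S100 receptor genes 4 were tested, of which 0 were called in edgeR, against 12.8% of all genes tested. At an unadjusted p under 0.05, 1 of the 4 was higher and 0 lower, against 1615 and 1760 of 11862 genes. DESeq2 called 0 of them, against 17.6% of 12819 genes. With the block Ager, a receptor of several S100 proteins, was called higher (adjusted p = 0.0210), as were 15.8% of all genes tested. It averaged 0.805 CPM with pEtn and 0.342 CPM in RPMI, and its groups did not overlap.

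Of 17 genes often reported beside S100a4, S100a6 and Lgals1 in effector and memory T cells, 2 rose and 0 fell in edgeR. Of all genes tested, 5.22% rose and 7.56% fell. At an unadjusted p under 0.05, 4 of the 17 were higher and 0 lower, against 1615 and 1760 of 11862 genes. DESeq2 called 2 higher and 0 lower, against 960 and 1295 of 12819 genes. The actin-binding genes Lsp1 and Tagln2 rose by 0.64 and 0.41 on the log2 scale (SE 0.18 and 0.09, edgeR adjusted p = 0.0437 and 0.0143). Lsp1 lost its call in 7 of 8 fits that left out a library (highest adjusted p 0.122, without RPMI replicate 3), and Tagln2 lost it without pEtn replicate 4 (0.0514). Vim and Crip1 stood at log2 fold changes of 0.14 and 0.32 (edgeR adjusted p = 0.483 and 0.302), and Crip1 was called higher with the block (adjusted p = 0.0384). The block called 7 of the 17 higher and 0 lower, against 15.8% and 16.5% of all genes tested. Over these lists and the other family genes together, 10 of 79 tested genes (12.7%) were called, 8 higher and 2 lower, against 12.8% of all genes tested. With the block 33 of the 79 were called, 25 higher and 8 lower, where 32.3% of all genes tested were called. None of the 10 kept its call in edgeR with replicates 3 and 4 summed. In that fit 11 of the 79 were higher and 3 lower at an unadjusted p under 0.05, against 983 and 1236 of 11992 genes.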

How the data were processed

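Sorted cells gave 8 RNA libraries, amplified over 15 cycles by a SmartSeq kit per the labels' protocols. The authors deposited 1 table of 45232 genes with total counts, RPKM and TPM for each library. A further column named CPM by the authors was treated as a signal and not used. The submitters' processing notes name the build GRCm39. Which aligner, counter and strand setting were used is not given in the sources used here.

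The tests on counts used edgeR 4.0.16 under R 4.3.3 (filterByExpr, TMM scaling, robust quasi-likelihood F test, medium as the only term, Benjamini-Hochberg over the 11862 genes tested, calls under 0.05), after tests on simulated data. SE came from the F statistic. DESeq2 1.42.0 and limma 3.58.1 on log2 deposited TPM or RPKM with a pseudocount of 1 or 0.1 were alternatives, beside RLE scaling or total counts, no filter or 5 CPM in 4 libraries, the replicate block, replicates 3 and 4 summed, either pair of replicates alone, and leaving out each library. log2 CPM used a prior count of 2. The replicate numbers were taken to pair the libraries in the fits with the block and in the differences by number. The main test left them out, since the labels state no pairing. Deviations from group means correlated at 0.44 to 0.57 between same-numbered libraries, above the limit of 0.1, with 0.41 at most between different numbers. For numbers 3 and 4 the gap was small, with 0.44 and 0.45 for the same number and 0.38 and 0.41 for 3 with 4. What links the libraries of a number is not stated.

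The 10 genes and all lists were chosen with earlier results of these data known. Named genes are the 10, the tested genes of the families, called genes of the partner lists and others with a stated role, and the 3 genes of most similar profile to the most abundant gene of each family. Lgals3bp and S100pbp were not counted as family genes, since they encode binding partners.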

Additional observations from a re-analysis of the deposited data

Results flagged for a closer look

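Of 44 groups of 4 libraries (10 genes and 12 other tested family genes in 2 media), 1 held a library far from the rest, where chance flags about 1 in 20. Anxa3 had 6.95 CPM in RPMI library 2, against 1.32, 1.63 and 2.02 CPM in RPMI libraries 1, 3 and 4, a gap of 0.876 of the whole range. Library 2 was also the highest for Anxa3 among the pEtn libraries, at 2.01 CPM, against 0.242 to 0.705 CPM in the other pEtn libraries.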

How the results depend on the processing

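The count of all genes called was 1516 and was within 1.5 times of that under other scalings, DESeq2, both filters and limma. It was 3830 with the replicate block, 325 with replicates 3 and 4 summed, 2329 with them summed and the block, 32 in replicates 1 and 2 only and 5675 in replicates 3 and 4 only, and 796 to 1638 when 1 library was left out. Of the 10 genes, 1 was called in the main test (12.8% of all genes) and 4 with the replicate block (32.3%). With replicates 3 and 4 summed, 0 were called (2.71%). In that fit 2 were higher and 0 lower at an unadjusted p under 0.05, against 983 and 1236 of 11992 genes. With them summed and the block, 3 were called (19.4%). In replicates 1 and 2 only 0 were (0.264%), and in replicates 3 and 4 only 7 were (48.1%). With 1 library left out 0 to 1 were called, 0 being without RPMI replicate 3 or 4 or pEtn replicate 3 or 4. Of the other family and partner genes, 10 were called; 33 were with the block, 0 with replicates 3 and 4 summed, 19 with them summed and the block, 0 in replicates 1 and 2 only, 48 in replicates 3 and 4 only, and 5 to 16 with 1 library left out. The log2 fold change turned sign for S100a6 in replicates 3 and 4 only (-0.17), without RPMI replicate 2 (-0.011) and without pEtn replicate 2 (-0.018; -0.018 to 0.15 with 1 library left out), for Anxa5 without pEtn replicate 2 (-0.11; -0.11 to 0.28 with 1 library left out) and for Lgals3 in replicates 1 and 2 only (0.15). In 189 of 210 combinations of 1 of the 10 genes and 1 alternative, direction and side of the threshold stayed. The causes were not tested. No scaling moved the median of all genes by more than 0.02 (log2).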
